A study of Mus musculus with 8 samples.

Results

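Peanut agglutinin (PNA) and the antibody GL7 are the usual stains for B cells of the germinal centre (GC), the site in a lymphoid follicle where B cells that met antigen divide, mutate their antibody genes and compete for help from T cells. Both stains read sugars, and 10 genes whose enzymes build, branch or cap those sugars were followed here in GC B cells sorted by their MYC protein: C1galt1, Gcnt1, Gcnt2, Gcnt3, St3gal1, St3gal6, St6gal1, Cmah, B4galt1 and Mgat5. They are 10 of the 18193 genes that have a probe set of a single symbol on the array, and they hold 35 of its 34945 such probe sets. The members were chosen by name with their MYC-positive against MYC-negative differences already known, so those differences are given as a description, without p-values. All groups came from 8-week-old GFPMYC/C57BL6 knock-in mice, which make MYC joined to GFP, immunized with sheep red blood cells (SRBC) 12 days before. In both groups splenic B cells were enriched with magnetic beads and gated as PNAhi/CD95hi, and this gate was then split by GFP. The fractions with and without GFP are called MYC-positive and MYC-negative and have 4 arrays each, so strong PNA binding is shared by all 8 arrays. Each array's description states its partner in the other fraction, which gives 4 pairs, and the titles call each array a biological replicate. The protocol speaks of each mouse and the design text of pools, so whether a pair is 1 mouse is not settled. If pairs came from the same pool, the spread between them may be technical.

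PNA binds galactose linked to N-acetylgalactosamine, the core 1 O-glycan, as long as no sialic acid covers it. GL7 binds sialic acid of the N-acetyl form (Neu5Ac) at the end of a lactosamine chain, and the enzyme CMAH, which turns Neu5Ac into Neu5Gc, removes that form. In mouse GC B cells Cmah is known to be repressed relative to naive B cells, which exposes the GL7 epitope, while core 1 that stays without sialic acid gives the PNA stain. C1GALT1 makes core 1, the GCNT enzymes add branches to it or to lactosamine, ST3GAL1 caps core 1, ST6GAL1 and ST3GAL6 cap lactosamine, B4GALT1 adds the galactose that completes lactosamine, and MGAT5 adds a branch to N-glycans.

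The RNA results turn on 5 members, C1galt1, Gcnt1, Gcnt3 and Cmah with lower signal in MYC-positive arrays and B4galt1 with higher signal. RefSeq start sites of build GRCm38.p6 were matched by symbol for 8 of the 10 members, with 16 start sites in all; Gcnt3 and St3gal1 were not matched. For the members of these 5 that were matched, the 250 bases before the start site that lies farthest upstream are shown, because the first 3 share the direction of their RNA difference and B4galt1 has the opposite one. Each runs 5′ to 3′ on the gene's strand, and capitals mark the GC box, GGGCGG or its reverse complement CCGCCC, searched on both strands.
C1galt1, chr6:7844974-7845223, + strand: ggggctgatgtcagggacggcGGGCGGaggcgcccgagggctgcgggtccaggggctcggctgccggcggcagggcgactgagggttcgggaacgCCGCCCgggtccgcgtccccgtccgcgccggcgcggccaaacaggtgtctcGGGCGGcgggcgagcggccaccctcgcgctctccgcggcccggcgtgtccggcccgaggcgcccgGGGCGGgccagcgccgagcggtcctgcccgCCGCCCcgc
Gcnt1, chr19:17372845-17373094, - strand: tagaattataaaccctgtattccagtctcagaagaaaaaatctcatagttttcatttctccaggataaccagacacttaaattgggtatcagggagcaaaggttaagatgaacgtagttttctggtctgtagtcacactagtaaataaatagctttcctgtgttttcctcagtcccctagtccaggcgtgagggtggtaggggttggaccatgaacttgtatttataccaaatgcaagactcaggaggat
Cmah, chr13:24327154-24327403, + strand: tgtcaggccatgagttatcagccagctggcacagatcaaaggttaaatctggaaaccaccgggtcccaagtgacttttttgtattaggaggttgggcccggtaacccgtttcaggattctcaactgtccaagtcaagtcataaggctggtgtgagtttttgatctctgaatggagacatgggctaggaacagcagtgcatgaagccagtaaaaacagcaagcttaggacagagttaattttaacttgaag
B4galt1, chr4:40853985-40854234, - strand: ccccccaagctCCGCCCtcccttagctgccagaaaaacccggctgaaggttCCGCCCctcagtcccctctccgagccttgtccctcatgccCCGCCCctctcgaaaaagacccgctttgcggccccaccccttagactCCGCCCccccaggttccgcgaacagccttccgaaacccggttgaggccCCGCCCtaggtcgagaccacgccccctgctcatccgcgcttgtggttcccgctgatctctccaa

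The sequences shown fall into GC-rich and GC-poor starts that do not follow the direction of the RNA difference, and for Gcnt1 the class depends on the start taken. Over the full window of 300 bases, which reaches 50 bases past the start, C1galt1 had 82.7% G and C with 52 CpG dinucleotides and B4galt1 had 68.3% with 26. The Cmah start shown had 47.3% with 3, and the Gcnt1 start shown had 40.7% with 2. The Gcnt1 starts not shown had 58.7% with 16 and 52% with 3, and the Cmah start not shown had 48.7% with 3. The median of all 32851 windows in the table was 52.7% with 7. The E-box CACGTG, the sequence that MYC and MAX bind best, was in 0 of the 16 member windows, while 7.15% of all windows hold it (the motif reads the same on both strands). The GC box was in 6 of the 16, one each for C1galt1, Gcnt2, St3gal6, St6gal1, B4galt1 and Mgat5, and in 35.7% of all windows. A missing match says only that these letters are not in the window. Which start site is used in these cells was not tested.

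Array signals had been scaled so that each array had about the same trimmed mean, 496.8 to 498, and a probe set entered the gene test when its mean log2 signal over the 8 arrays was above the level of a signal of 18.7. Of the 35 member probe sets 26 passed and 9 did not, and each of the 10 members kept at least 1. Myc itself, on which the sort was made, had a geometric mean signal of 663 in MYC-positive and 92.9 in MYC-negative arrays, with the higher value in the positive array of all 4 pairs. The summed signal of 7 B cell marker genes ran from 48869 to 58878 in MYC-negative and from 39354 to 48055 in MYC-positive arrays; 2 of the 7, Pax5 (-1.75) and Cd22 (-0.63), were called lower by limma and 0 higher. For 7 GC B cell markers the sums ran from 28101 to 40135 and from 22297 to 28071, and 2, Mybl1 (-2.12) and Fas (-0.61), were called lower and 0 higher. Mef2b of this list went the other way (0.6) and was not called. Beside these counts, 11.2% of all genes tested were called higher and 11.5% lower. The MYC-positive array of pair 4 stood apart, at 89.9 on the first principal component of the tested genes against 24.5 to 31.1 for the other positive arrays. Fewer cells of a type and less RNA per cell cannot be told apart in such sorted pools.

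Among all 11754 genes tested, each by its brightest probe set, 22.7% were called at a limma adjusted p under 0.05 with the pair as a block, 11.2% higher and 11.5% lower in MYC-positive arrays. Of the 10 members 5 were called, 1 higher and 4 lower; since the members were chosen on this contrast, nothing is read from that count. Without pair 1 the count was 3, without pair 2 it was 4 and without pair 4 it was 6. The median member difference, MYC-positive minus MYC-negative, was -0.46 on the log2 scale, and that of all tested genes -0.063. The 2 groups did not overlap for 4 members with lower signal and 1 with higher signal, where such genes made up 10.9% and 11.1% of all tested. The other 5 members had overlapping groups. In all 4 pairs 4 members were lower and 1 was higher, and of all tested genes 23.0% and 19.3% were.

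**Figure D1:**
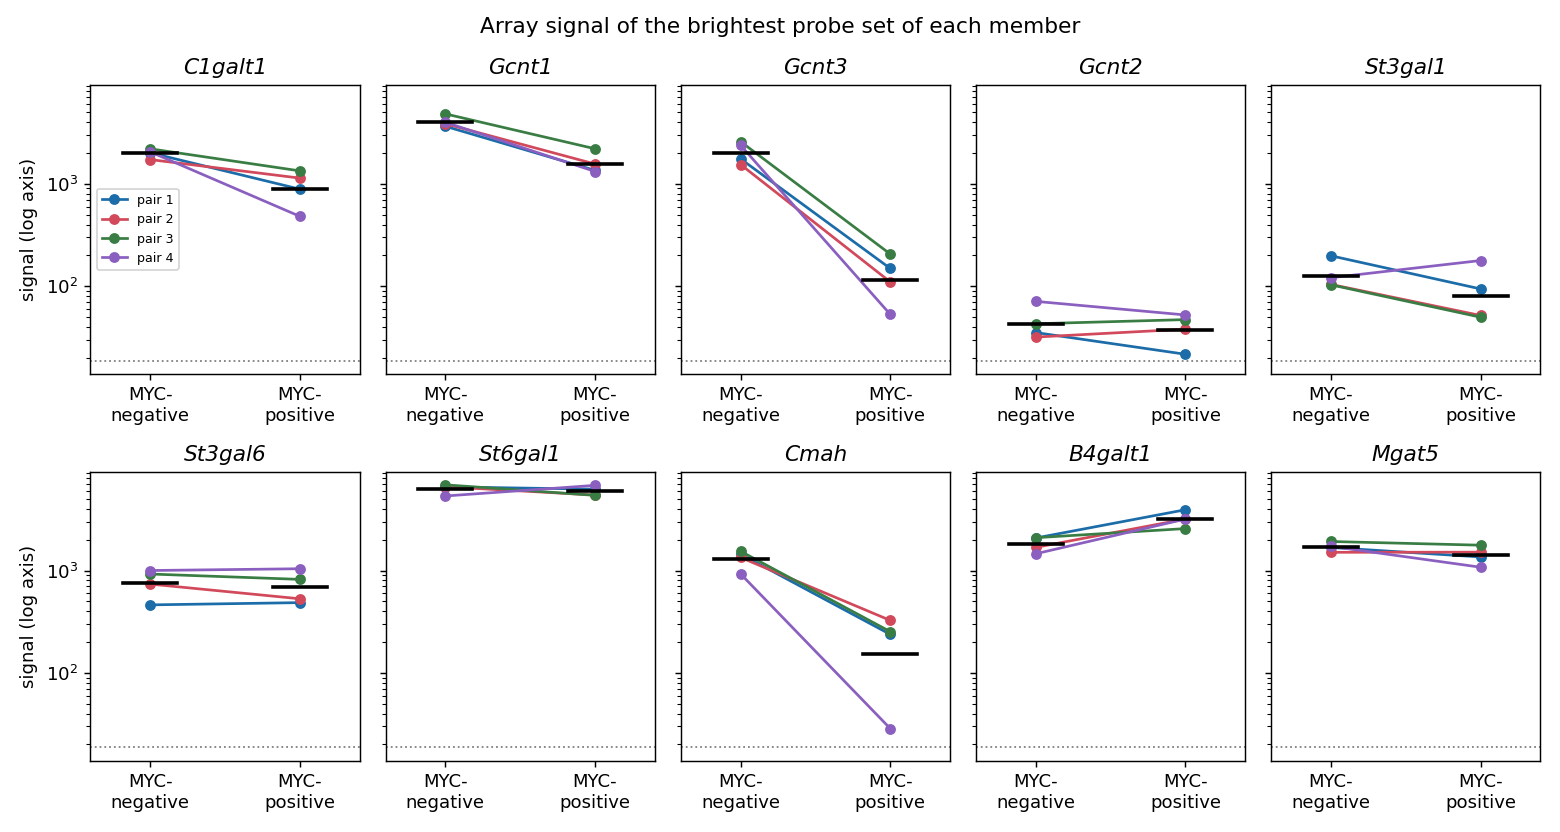
Signal of the brightest probe set of each member on a log axis, in MYC-negative and MYC-positive arrays; lines join the 4 pairs, black bars are geometric means, and the dotted line is the filter level of 18.7. Gcnt3, Cmah, Gcnt1 and C1galt1 are lower and B4galt1 is higher in the MYC-positive array of every pair, while the groups of the other 5 overlap.

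C1galt1, the gene of the core 1 synthase that makes the sugar PNA reads, had signals of 2011, 1725, 2198 and 2053 in the MYC-negative arrays of pairs 1 to 4. In the MYC-positive arrays they were 887, 1137, 1338 and 481. Every positive array lay below every negative one, and the positive array of pair 4 lay lowest. The mean difference was -1.15 ± 0.68 on the log2 scale (SD of 4 pairs), a 2.22-fold lower geometric mean. The other 2 probe sets of C1galt1 were lower too, at -0.47 ± 0.19 and -1.30 ± 0.59, each in 4 of 4 pairs, although the groups overlapped for the first of these, with geometric means of 1040 and 749. Without pair 4 the C1galt1 difference was -0.83.

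C1galt1c1, which is no member and encodes the chaperone that C1GALT1 needs to fold, averaged (geometric mean) 307 in the MYC-negative group and 292 in the MYC-positive group (difference -0.07, SE 0.28, limma adjusted p = 0.89), so it did not pass the test; 3 of 4 pairs were lower.

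Gcnt1 encodes the core 2 enzyme, which adds a branch to core 1. Its signals were 3649, 3864, 4822 and 3992 in MYC-negative arrays and 1353, 1561, 2200 and 1319 in MYC-positive arrays. The gap between groups was wide against the spread within them, with SDs of 0.17 and 0.34 on the log2 scale. The 4 pair differences lay close together, from -1.13 to -1.60, and averaged -1.37 ± 0.20 (SD of 4 pairs), which is 2.58-fold. The second Gcnt1 probe set, with geometric means of 181 and 87.9, differed by -1.05 ± 0.33 and had no overlap either.

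Gcnt3 encodes a core 2 and core 4 enzyme of the same family, best known from mucin-making epithelia. Its signals were 1755, 1544, 2585 and 2380 in MYC-negative arrays and 149, 110, 206 and 53.0 in MYC-positive arrays. No other member differed as much: the geometric mean was 2021 against 116, a 17.5-fold lower signal, with folds between 11.8 and 44.9 in the 4 pairs. On the log2 scale the difference was -4.13 ± 0.91 (SD of 4 pairs), the third lowest of the 11754 genes tested, and without pair 4 it was -3.67. Only this 1 of the 3 Gcnt3 probe sets passed the filter. The other 2 were dim throughout, none of their signals exceeding 37.0, and were lower in 4 of 4 pairs as well.

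Gcnt2, the gene of the enzyme that makes I-type branches on lactosamine, was near the filter level. Of its 8 probe sets 6 did not pass, and the brightest had signals of 35.2, 31.8, 42.9 and 71.0 in MYC-negative and 21.6, 38.0, 47.1 and 52.3 in MYC-positive arrays. The groups overlapped, the pairs split evenly in sign, and the difference was -0.19 ± 0.46. It turned to 0.24 after quantile normalization and to 0.25 after centring each array on its median. The other kept probe set was at -0.98 ± 1.65, with its highest and its lowest signal both in MYC-positive arrays (64.8 and 4.41).

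**Figure D2:**
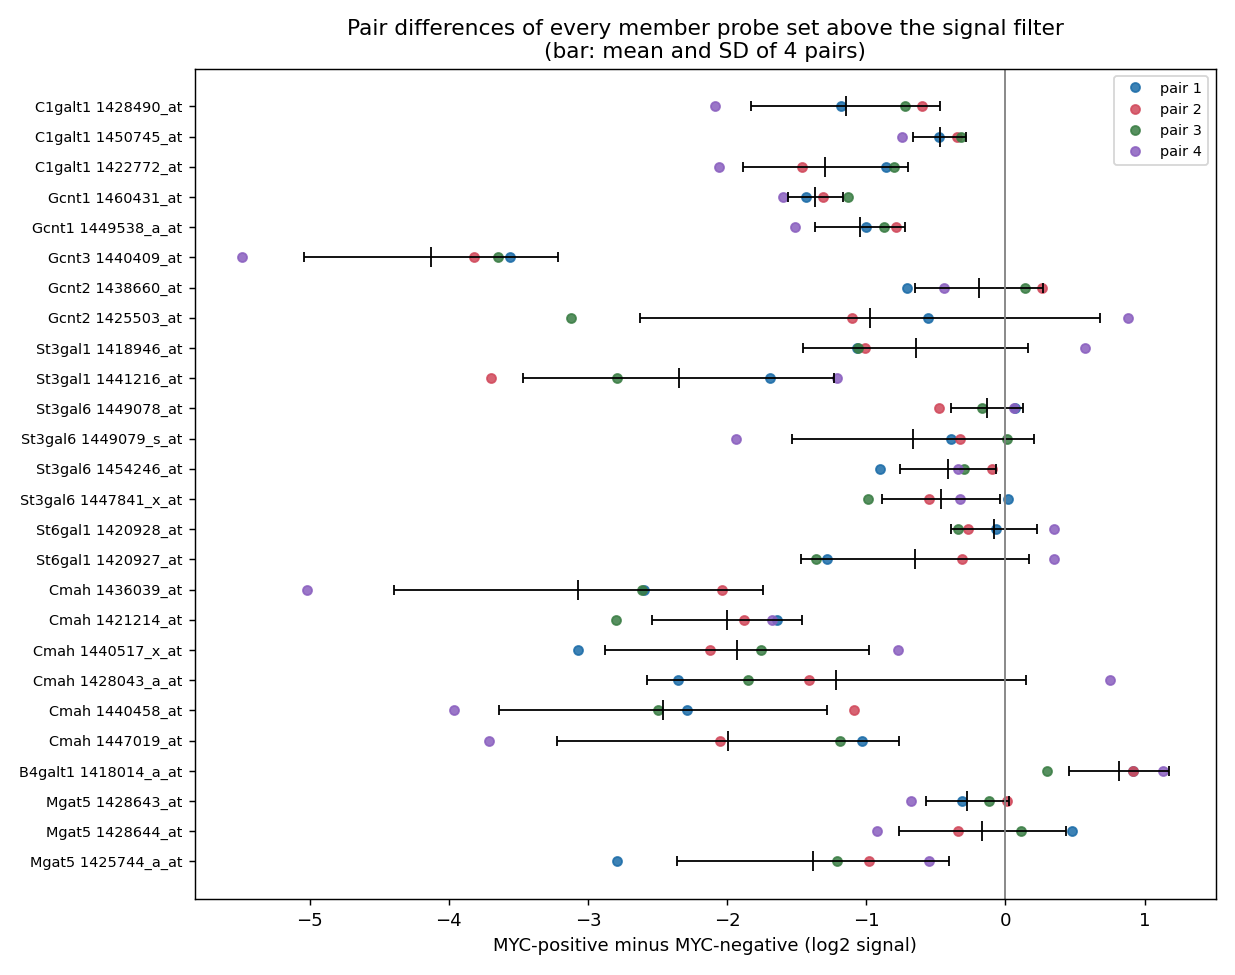
MYC-positive minus MYC-negative log2 signal of the 26 member probe sets above the filter; coloured points are the 4 pairs and black bars the mean and SD. All 6 Cmah, both Gcnt1 and all 3 C1galt1 probe sets have means below 0, and the single B4galt1 probe set is the only one with a mean above 0.

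Of the sialyltransferases, which put sialic acid on the ends of these chains, none of the member genes had groups that stood apart with its brightest probe set. St3gal1, whose enzyme caps core 1 and so hides it from PNA, had signals of 198, 104, 103 and 121 in MYC-negative and 93.9, 51.7, 49.7 and 178 in MYC-positive arrays. The log2 differences were -1.07, -1.01 and -1.06 in pairs 1 to 3 and 0.57 in pair 4. The mean difference was -0.65 ± 0.81, and it was -1.05 without pair 4. The second St3gal1 probe set was lower in 4 of 4 pairs with no overlap, from 104 to 20.3 in geometric mean (-2.35 ± 1.12), but with 2 of the positive arrays, at 7.89 and 16.4, under the filter level.

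St6gal1 encodes an enzyme that caps lactosamine with sialic acid. Its signals were 6572, 6585, 6884 and 5354 in MYC-negative and 6244, 5470, 5430 and 6802 in MYC-positive arrays. The groups overlapped and the difference was -0.09 ± 0.31, with 0.36 after median centring. Its second probe set was at -0.65 ± 0.82, also with overlap. St3gal6, whose enzyme caps lactosamine in the other linkage, had signals of 462, 738, 925 and 1001 against 486, 530, 820 and 1042. The pairs had the same order in both groups, with pair 1 lowest and pair 4 highest, and the difference was -0.13 ± 0.26 (0.31 after median centring and 0.007 after quantile normalization). Its other 3 kept probe sets were at -0.66 ± 0.87, -0.41 ± 0.35 and -0.46 ± 0.42, with overlap in each, and the second of these was lower in 4 of 4 pairs. With the brightest probe set of both genes the difference was less than the SD between pairs, which does not show that the groups are equal.

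Cmah, the hydroxylase gene whose product removes the GL7 epitope, had signals of 1445, 1343, 1545 and 928 in MYC-negative and 238, 326, 253 and 28.6 in MYC-positive arrays. All positive arrays lay below all negative ones, and the positive array of pair 4 was far below the other 3. The geometric mean was 1291 against 154, an 8.39-fold lower signal, and the pairs ranged from 4.12-fold to 32.4-fold. The difference was -3.07 ± 1.33 on the log2 scale (SD of 4 pairs) and -2.42 without pair 4. All 6 Cmah probe sets passed the filter and all 6 were lower on average, from -1.22 ± 1.36 to the value above. The groups stood apart in 4 of the 6. The exceptions were a probe set at -2.0 ± 0.54 that was lower in 4 of 4 pairs, and the one at -1.22, which was higher by 0.75 in pair 4.

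B4galt1, the galactosyltransferase gene whose enzyme completes lactosamine, was the only member with higher signal in MYC-positive arrays. Its signals were 2080, 1685, 2094 and 1459 in MYC-negative and 3929, 3189, 2572 and 3186 in MYC-positive arrays, so the lowest positive array lay above the highest negative one. The difference was 0.82 ± 0.36, a 1.76-fold higher geometric mean, with pair 3 the smallest at 0.30 and pair 4 the largest at 1.13. B4galt1 had 1 probe set, so no second one could be set beside it.

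Mgat5, the N-glycan branching gene, had signals of 1681, 1508, 1923 and 1723 in MYC-negative and 1358, 1513, 1770 and 1078 in MYC-positive arrays. The groups overlapped, with a difference of -0.28 ± 0.30, and 0.17 after median centring. A second probe set was at -0.17 ± 0.60. The third and dimmest stood apart, from 45.1 to 17.3 in geometric mean (-1.38 ± 0.98), with a positive array at 6.87, so the probe sets of Mgat5 disagree in size.

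Taking all 26 kept member probe sets, which are not independent since several share a gene, 25 had a lower mean in MYC-positive arrays. The share of all kept probe sets with a lower mean was not counted, and the members were chosen on this contrast. Nothing is therefore read from the 25. The groups stood apart downward for 11 and upward for 1, where 12.4% and 9.38% of the 22024 kept probe sets of 1 gene did so. The MYC-positive array of pair 4 was the lowest of the 8 arrays in 12 of the 26 (46.2%), and in 30.7% of the 22024. In C1galt1, Gcnt1, Gcnt3, Cmah and Mgat5 it was the lowest with the brightest probe set.

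The scaling of the arrays sets where 0 lies. Median signals ran from 41.45 to 55.83 in MYC-negative and from 28.22 to 39.67 in MYC-positive arrays, although the trimmed means were about level. The median difference of all tested genes moved from -0.063 as deposited to 0.087 after quantile normalization and 0.38 after median centring, and the share of called genes that were higher moved from 49.4% to 57.2% and 85.4%. Under all 3 scalings Gcnt3 (-4.13, -3.88 and -3.69), Cmah (-3.07, -2.87 and -2.63), Gcnt1 (-1.37, -1.43 and -0.93) and C1galt1 (-1.15, -1.08 and -0.71) kept lower means and B4galt1 (0.82, 0.78 and 1.26) a higher one. Gcnt2, St3gal6, St6gal1 and Mgat5 changed sign with median centring, and Gcnt2 and St3gal6 with quantile normalization too.

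**Figure D3:**
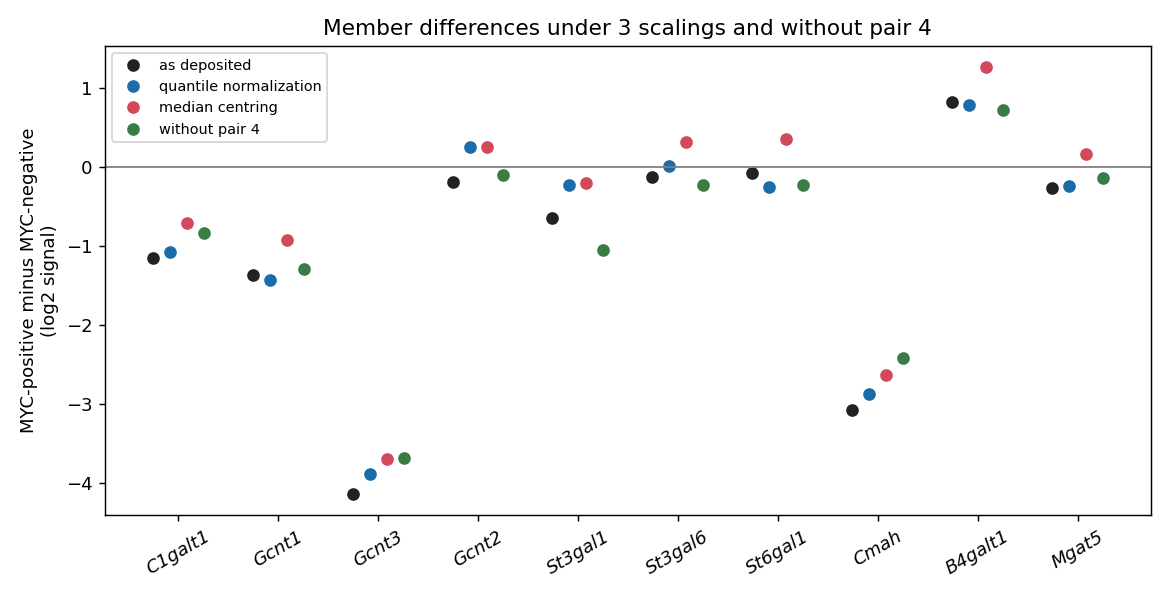
Mean MYC-positive minus MYC-negative log2 signal of each member as deposited, after quantile normalization, after median centring and without pair 4. Gcnt3 stays below -3.6 and Cmah below -2.4, B4galt1 stays above 0.7, and Gcnt2, St3gal6, St6gal1 and Mgat5 lie on both sides of 0.

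Markers of other cells moved in the same comparison, in which 11.2% of all genes tested were called higher and 11.5% lower. Of 10 myeloid marker genes tested (12 on the array) 7 were called higher and 1 lower in MYC-positive arrays, and the summed signal of the 12 ran from 780 to 1708 in MYC-negative and from 1354 to 9754 in MYC-positive arrays. The gene called lower was Apoe (490 against 134 in geometric mean). Among those called higher, C1qa, C1qc and Csf1r had MYC-negative geometric means of 6.15, 3.33 and 5.42. These lie under the filter level, so the 3 genes entered the test through their MYC-positive signals. The myeloid marker Itgam was near 0 in all arrays, at a signal of 3.53 or less. In the pairs the sum went from 1708 to 9754 in pair 1, from 1525 to 3833 in pair 2, from 964 to 1354 in pair 3 and from 780 to 3247 in pair 4. Of 6 plasma cell marker genes tested (7 on the array) 3 were called higher and 0 lower (Sdc1, Irf4 and Derl3), with sums from 16257 to 28278 in MYC-negative and from 24787 to 31433 in MYC-positive arrays. Jchain, the brightest of the list, was not called (14219 against 14417 in geometric mean), nor were Prdm1 (0.54) and Xbp1 (0.35). Tnfrsf17 did not pass the signal filter (11.2 against 2.15). Of 5 naive or memory B cell markers 2 were called lower, Klf2 and Cr2, with sums from 2566 to 4264 and from 1399 to 2294. Fcer2a and S1pr1 (each -0.35) were not called, nor was Ccr7, which went the other way (0.99). Cr2 was the brightest of the list, at 2324 against 941 in geometric mean. Of 7 T cell markers on the array Cd3d, Cd3e, Cd3g and Cd4 did not pass the signal filter. Of the 3 tested, Thy1 was called higher (14.5 against 73.6 in geometric mean). The MYC-negative mean of Thy1 lies under the filter level, so Thy1 entered the test through its MYC-positive signals. Cd247 (486 against 169) and Cd8a (26.5 against 18.4) did not pass the test. The sum of the 7 ran from 451 to 706 in MYC-negative and from 89.9 to 760 in MYC-positive arrays. The part of myeloid, plasma, T and naive or memory B cells in the member differences was not tested.

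Genes of the neighbouring steps of glycan synthesis, listed by function apart from the members, went both ways. These lists were chosen with earlier results of these data known, so their adjusted p-values are given as a description. Of 92 listed, 87 were on the array and 74 were tested. Of these 6 were called higher (8.11%) and 11 lower (14.9%), beside 11.2% and 11.5% of all genes, and their median difference was -0.07, close to the -0.063 of all genes. The rest, 57 genes, did not pass.

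The clearest of these were a lactosamine-chain gene and a sialyltransferase gene. B3gnt5, whose enzyme starts the lacto-series of glycolipids, had signals of 1604, 1951, 1482 and 1052 in MYC-negative and 197, 402, 405 and 217 in MYC-positive arrays. It fell by 2.36 on the log2 scale (SE 0.24, limma adjusted p = 0.00074), and no positive array reached a negative one. St6galnac2, whose enzyme adds sialic acid to the inner sugar of O-glycans, rose from 584, 500, 770 and 866 to 1212, 1501, 1742 and 2525 (1.34, SE 0.19, limma adjusted p = 0.0023), again without overlap. The second probe sets of both genes went the same way, at -1.15 and 0.62. These were the only 2 of the 17 called neighbours that passed the test under all 12 alternatives tried. Without pair 1, and also without pair 2, the calls of the other 15 ended, with adjusted p from 0.058 to 0.99 for them.

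Among 12 other sialyltransferase genes tested 2 were called higher and 2 lower (16.7% each, beside 11.2% and 11.5% of all genes). Their median difference was 0.21. Beside St6galnac2, St6galnac4, which encodes an enzyme of the same family, rose (1.07, SE 0.23, limma adjusted p = 0.012). St3gal2, whose enzyme can cap core 1 as ST3GAL1 does, fell by 0.75 (SE 0.17, limma adjusted p = 0.017), with 1365 against 813 in geometric mean. St8sia4, a polysialic acid synthase gene, fell by 0.70 (SE 0.16, limma adjusted p = 0.015). After median centring St3gal2 was at -0.31 and St8sia4 at -0.26, and neither passed (adjusted p = 0.27 and 0.32).

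Of 7 genes of sialic acid supply and removal 1 was called higher and 1 lower (14.3% each, beside 11.2% and 11.5% of all genes). Nans, which encodes the Neu5Ac phosphate synthase, rose (0.76, SE 0.22, limma adjusted p = 0.034). Neu3, a sialidase gene, fell by 1.04 (SE 0.32, limma adjusted p = 0.044). Nans passed in 8 and Neu3 in 5 of the 12 alternatives, and Neu3 did not pass after quantile normalization or median centring. Cmas, whose enzyme activates sialic acid for the transferases, was at 0.12 and did not pass (adjusted p = 0.64). Of 11 genes of O-glycan start and core 1, Galnt10 alone was called, which is 9.09% lower beside 11.5% of all genes. Galnt10 was at -1.29 (limma adjusted p = 0.045), with its other probe set at -0.08. It passed in 2 of the 11 alternatives that gave it a value.

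Of 18 genes of N-glycan branching and lactosamine 1 was called higher (5.56%) and 3 lower (16.7%), beside 11.2% and 11.5% of all genes. Their median difference was -0.38. B4galt5, a relative of B4galt1, rose (0.50, SE 0.15, limma adjusted p = 0.045) and passed in 4 of the 12 alternatives. With B3gnt5, B3gnt8, a lactosamine-chain gene, fell by 2.24 (SE 0.60, adjusted p = 0.028) to a geometric mean of 18.7 that lies at the filter level. B3gnt8 passed in 5 of the 11 alternatives that gave it a value. Man2a1, an N-glycan trimming mannosidase gene, fell by 0.64 (adjusted p = 0.015). After median centring Man2a1 was at -0.20 and did not pass (adjusted p = 0.42). Of 14 genes of nucleotide sugar supply 2 were called higher (14.3%, beside 11.2% of all genes) and 0 lower. They were Pmm1 (1.08, adjusted p = 0.023) and Gmds (1.07, adjusted p = 0.016), both of the mannose and fucose branch. Gmppb (0.72), Gmppa (0.09) and Pmm2 (0.07) of the same branch were not called. The transporter gene for UDP-galactose, Slc35a2, was at -0.05 with its brightest probe set (adjusted p = 0.84). Its other kept probe sets were lower, at -0.97, -0.81, -1.17 and -1.52, so the probe sets of Slc35a2 disagree in size.

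Of 12 genes of glycan carriers and glycan-binding proteins 0 were called higher and 4 lower, beside 11.5% lower among all genes, with a median of -0.43. Siglecg, the gene of a sialic acid-binding inhibitory receptor of B cells, fell by 1.31 (SE 0.31, limma adjusted p = 0.018), though pair 4 differed by only -0.06. Lgals8, a galectin gene, fell by 0.96 (adjusted p = 0.022), and Cd22, whose product binds the sugar that ST6GAL1 makes, fell by 0.63 (adjusted p = 0.021). The fourth was Fas, the gene of CD95, on which both fractions were gated (-0.61, adjusted p = 0.019); it belongs to the list but is named here after its values were seen. After median centring Cd22 (-0.19), Fas (-0.17) and Lgals8 (-0.52) did not pass.

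**Figure D4:**
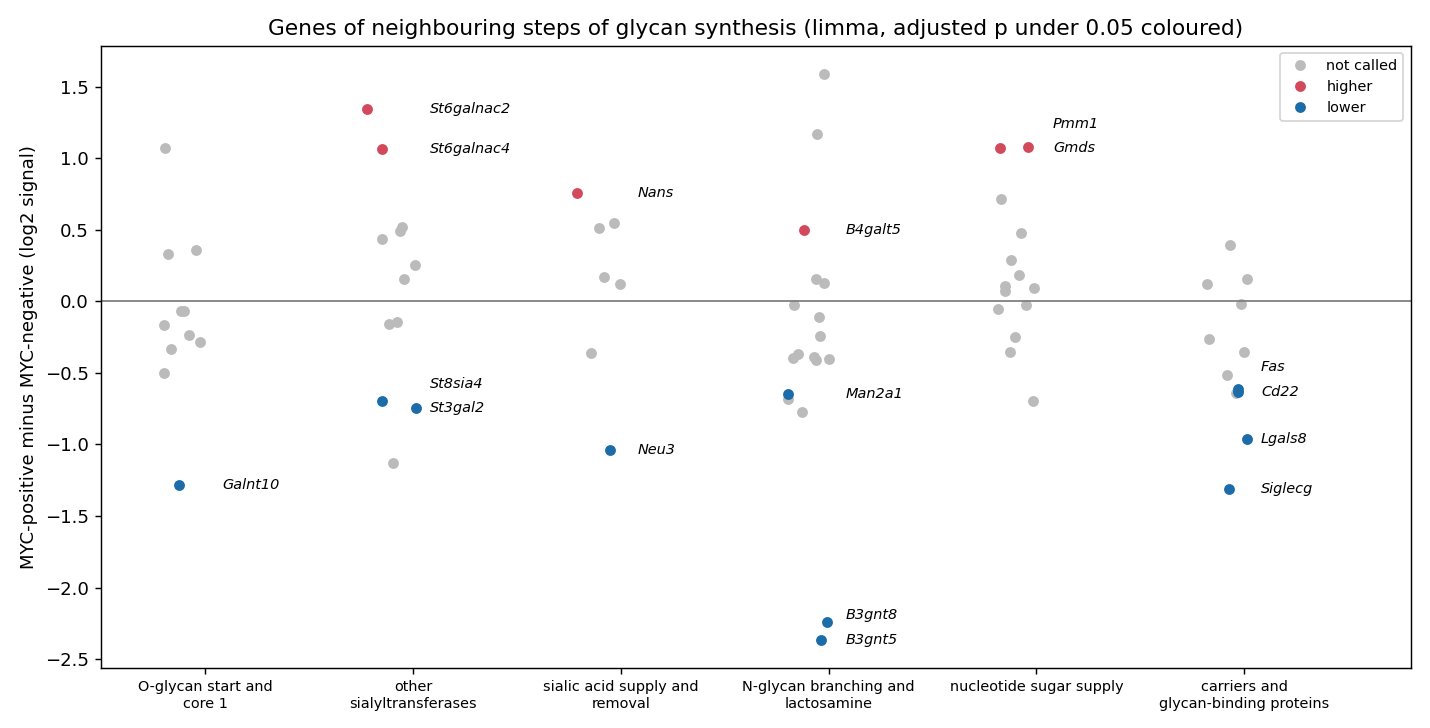
MYC-positive minus MYC-negative log2 signal of the 74 tested neighbours of the members, by list; red and blue points are genes called higher and lower by limma at an adjusted p under 0.05, and grey points are not called. B3gnt5 and B3gnt8 lie lowest among the called genes and St6galnac2 highest.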

How the data were processed

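Per the labels' protocols, total RNA of the sorted cells was amplified and biotin-labelled with NuGEN kits before hybridisation to Affymetrix mouse arrays. What the authors deposited is a signal intensity for each probe set, on a linear scale. The submitters' processing notes name MAS5; no version or scaling target is given there. Signals under 1 were raised to 1 before taking log2. Of 45056 probe sets 34945 have 1 gene in the platform annotation, 932 several and 9160 were unnamed. Probe sets with a mean log2 above the 40th percentile were kept, and the brightest of each gene was fitted with limma 3.58.1 in R 4.3.3, with the pair as a block (lmFit, eBayes with an intensity trend, 3 residual degrees of freedom, Benjamini-Hochberg over 11754 genes, 2-sided). With 4 arrays per group the number of arrays sets the precision, and an exact test over 4 pairs cannot go below 0.125. Paired arrays' deviations from group means correlated at 0.26, 0.17, 0.088 and 0.12 for pairs 1 to 4; the pairing comes from the sample descriptions. The procedure was tested on simulated data. Members, gene lists and tests were chosen with earlier results of these data known. Named neighbours are up to 3 called genes with the largest differences per list and direction, and Fas, named after its values were seen. Alternatives were other scalings, filters, floors, probe set rules, variance models, no block and leaving out each pair.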

Additional observations from a re-analysis of the deposited data

Results flagged for a closer look

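Of 129 sets of 4 values examined for the members and the named neighbours, 6 had a value whose gap to the nearest of the others relative to their range exceeded Dixon's critical value for 4 values, and about 1 in 20 would do so by chance. Pair 4 gave 5 of the 6. The Gcnt3 difference was -5.49 in pair 4 and between -3.82 and -3.56 in the other pairs. The brightest Cmah probe set had a log2 signal of 4.84 in the MYC-positive array of pair 4 and 7.90 to 8.35 in the other positive arrays. A second Cmah probe set was at 6.91 in the MYC-negative array of pair 4 against 8.35 to 8.62 in the other negative arrays. Another Cmah probe set was at 4.94 in the MYC-positive array of pair 1 against 6.19 to 6.41. The St3gal1 difference was 0.57 in pair 4 and between -1.07 and -1.01 in the others. B3gnt8 was at 5.28 in the MYC-negative array of pair 4 against 6.79 to 6.92.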

How the results depend on the processing

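Gcnt3, Cmah, Gcnt1 and C1galt1 had lower means and B4galt1 a higher one under all alternatives run. The 5 called members lost B4galt1 and C1galt1 without the intensity trend (3 called) and were 3 to 6 when a pair was left out; the mean over probe sets added St3gal1. Of 119 values of members under alternatives 8 moved by more than the SD between pairs, 5 of them with median centring. All genes called higher and lower were 3204 and 546 after median centring and 736 and 771 without the intensity trend, and 399 to 1747 and 355 to 2057 when a pair was left out. Without the replicate block 901 genes were lower, and the 5 called members were the same 5. Related genes called higher were 11 after quantile normalization and 17 after median centring, those called lower 3 after median centring and 4 without the intensity trend; leaving out a pair gave 1 to 7 higher and 1 to 14 lower. Galnt10 reversed to 0.388 after quantile normalization, where its other probe set was the brighter one. With the 60th percentile filter Gcnt2, Galnt10 and B3gnt8 had no value.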
